A study of Callithrix jacchus with 4 samples.

Results

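The endothelin system was followed through 5 genes, the ligands EDN1 and EDN3, the converting enzyme ECE1 and the receptors EDNRA and EDNRB. The genes were chosen by name, as ligands, receptors and converting enzyme of the system, and were read from unique molecular identifier (UMI) counts of single nuclei summed per library and annotated cell type. All 5 genes were listed for both cohorts, among 32323 genes listed for the injured and 16383 for the control cohort. EDN2, a further ligand, was listed only for the injured cohort and is not analysed here.

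Nuclei came from grey matter of the primary visual cortex (V1) of adult marmosets. The injured cohort comprised 3 animals that had received injections of endothelin-1 (ET-1) into V1 of 1 hemisphere, with tissue taken 7 days later and 1 library made per animal. The control cohort comprised 3 marmosets without a lesion, whose nuclei were pooled in 1 library. The peptide injected to produce the injury was therefore itself the product of one of the genes examined, although a peptide adds no transcript. The control marmosets received no injection, so an effect of the lesion, of the peptide and of the injection cannot be told apart.

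Endothelin-1 is made as a large precursor, mainly by the endothelium, and endothelin converting enzyme cuts it to the active peptide. The A receptor, encoded by EDNRA, sits on contractile cells of the vessel wall and drives long-lasting constriction. The B receptor, encoded by EDNRB, is found on endothelium, where it releases vasodilators and clears the peptide, and on astrocytes and glial precursors.

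The 4 libraries held 7500 to 12527 nuclei and 22832703 to 48722394 UMIs, and median depth was 3531 to 4504.5 UMIs per nucleus in the injured libraries against 2117 in the control library. The cohorts also differed in how nuclei were isolated, in sequencing facility and instrument and in doublet removal, and these cannot be told apart from injury. Any pair of libraries shared 15 to 27 barcodes. The authors' annotation gave 7 cell types, namely astrocytes (Astro), endothelial cells (Endo), excitatory neurons (ExN), inhibitory neurons (InN), microglia, oligodendrocytes (Oligo) and oligodendrocyte precursors (OPC). Endo made up 1021, 1735 and 1688 nuclei in injured replicates 1 to 3 but 181 in control, and microglia 2218 to 2823 nuclei against 129. Fewer cells of a type and less RNA per cell cannot be told apart in sums of a type, so levels are given as counts per 1000000 UMIs of that type (CPM).

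The nuclei labelled Endo were a different mixture in each cohort. Each Endo nucleus was classed by the markers of endothelial, mural and fibroblast cells that it held, with at least 2 distinct markers needed. Left unclassed were 524 of 1021, 820 of 1735 and 646 of 1688 injured nuclei and 53 of 181 control nuclei. Of the 128 classed control nuclei, 97 were fibroblast-marked, 25 endothelial-marked and 6 mural-marked. In the injured libraries endothelial-marked nuclei led, with 316, 620 and 669 nuclei, followed by 144, 218 and 302 fibroblast-marked and 37, 77 and 71 mural-marked nuclei. CLDN5 and LUM were among the markers listed for the injured cohort alone, so sums were taken over markers listed for both. The 8 endothelial markers summed to 3080, 3437 and 4266 CPM in injured Endo against 1107 CPM in control, the 6 fibroblast markers to 2283, 1390 and 2551 CPM against 5909 CPM, and the 7 mural markers to 1074, 965 and 1298 CPM against 265 CPM. A cluster of 2005 injured Endo nuclei (the authors' cluster 19) went against its label. It held 230 CPM of endothelial markers, against 10282 CPM in the main endothelial cluster (cluster 14), and 1517 CPM of neuronal markers, with a median of 1150 UMIs per nucleus and HBB, NEFL and NEFM among its leading genes. Fitted differences of the 5 genes in Endo are given with and without it. Among nuclei labelled microglia, cluster 16 (2216 of 7733 injured nuclei) was led by SKAP1, LTB, BTLA and ICOS, genes known from lymphocytes.

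EDN1, which encodes the precursor of the peptide that was injected, was highest in Endo of the injured animals. It reached 19.7, 27.9 and 13.5 CPM in injured replicates 1, 2 and 3, from 48, 117 and 60 UMIs. Each of the other 6 cell types stayed at or below 5.99 CPM in every injured library, so that Endo stood above all of them without overlap. Below Endo, OPC, ExN, astrocytes, microglia, InN and oligodendrocytes followed in that order of mean level, and the ranges of each of these neighbours overlapped.

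**Figure D1:**
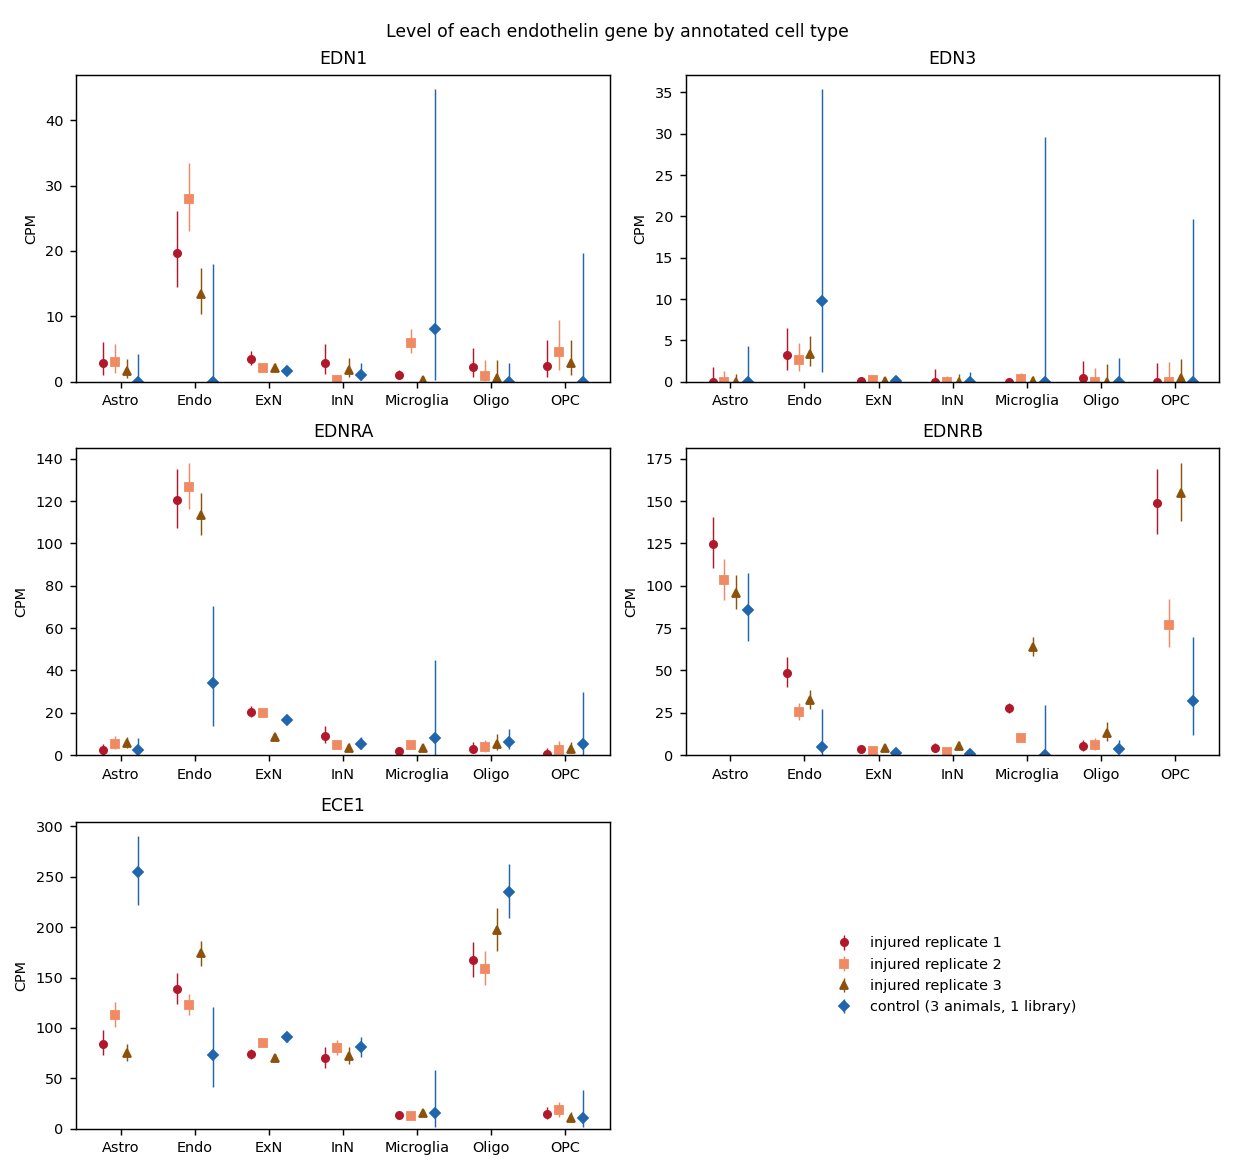
Level of each endothelin gene (counts per 1000000 UMIs of the cell type, linear axis from 0) in the 7 annotated cell types, with 1 point per library and exact 95% Poisson intervals that cover counting error only. EDN1 and EDNRA stood highest in Endo of the injured libraries, EDNRB in OPC and astrocytes, and ECE1 in oligodendrocytes and Endo (with cluster 19), with astrocytic ECE1 at 254 CPM in control against 75.2 to 113 CPM in the injured libraries.

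The control library held 0 EDN1 UMIs in Endo, where 3 UMIs would have been 14.7 CPM. Pooled over the injured libraries, Endo EDN1 was thus at least 1.38-fold higher than this limit for control (1.07-fold without injured replicate 2), which with the intervals used throughout covers counting error only. The comparison did not pass the test (edgeR quasi-likelihood test, Benjamini-Hochberg adjusted p = 0.106), and injured replicate 3 lay below the limit. Of the 33 EDN1 UMIs of the control library (1.45 CPM over all its nuclei), excitatory neurons held 29 (1.70 CPM), beside 3.54, 2.14 and 2.06 CPM in the injured libraries. A UMI was found in 0.54% of control excitatory nuclei and in 0 of 1122 oligodendrocytes, where 3 nuclei would have been 0.267%, at median depths of 2678 and 900 UMIs. At 500 UMIs per nucleus the excitatory share was 0.13%, below that limit, so a difference between these types was not detectable at equal depth. The part of free RNA in these levels was not tested. The fitted difference there was 0.68 on the log2 scale (SE 0.42, adjusted p = 0.264 by edgeR).

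Within Endo, EDN1 was higher in endothelial-marked than in fibroblast-marked nuclei. Endothelial-marked nuclei held 40.1, 49.7 and 24 CPM in the 3 injured animals, whereas fibroblast-marked nuclei held 0, 11.4 and 1 CPM. In mural-marked nuclei, a small class, 4, 0 and 2 UMIs were counted, so its level was not resolved. EDN1-positive Endo nuclei held 11441, 9001 and 11758 CPM of endothelial markers and negative ones 4529, 4907 and 5957 CPM. Mural markers were also higher in the positive nuclei, at 2247 against 1017, 1161 against 952 and 1439 against 1291 CPM. Cluster 19 held 4 EDN1 UMIs in all, so the level in Endo was as large without it, at 28.1 ± 10.3 CPM (SD, n = 3) against 20.4 ± 7.23 CPM with it (adjusted p without it 0.0859 by edgeR). A UMI was found in only 7.91%, 9.03% and 6.13% of endothelial-marked nuclei. Excitatory neurons, at 5378 to 7077 UMIs per nucleus, showed one in 1.14 to 2.36% of nuclei in the same libraries.

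Microglia of injured replicate 2 stood apart in EDN1, with 43 UMIs (5.99 CPM) against 13 and 2 UMIs (1.08 and 0.25 CPM) in replicates 1 and 3. Control microglia held 1 UMI in 129 nuclei, equal to 8.03 CPM with a 95% Poisson interval of 0.20 to 44.8 CPM, so the cohorts were not resolved. The same animal had the highest Endo level. In its microglial cluster 21 the level was 10.6 CPM, against 1.37 and 0.38 CPM in the other animals. Endothelial markers were 374 CPM in its 32 EDN1-positive and 377 CPM in its EDN1-negative microglia, and 686 against 487 CPM in replicate 1 (13 positive nuclei). Their part in the result was not tested.

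EDN3, the ligand that prefers the B receptor and is known for its role in neural crest development, was rare and vascular. Injured Endo held 8, 11 and 15 UMIs (3.29, 2.62 and 3.37 CPM) and control Endo 2 UMIs (9.80 CPM). The ratio of the pooled injured to the control level was 0.31 with a 95% interval of 0.08 to 2.69, so the direction was not resolved. Without cluster 19 the fitted log2 fold change was -1.03 (SE 1.06, adjusted p = 0.545 by edgeR). Astrocytes and InN held 0 EDN3 UMIs in all 4 libraries, and the remaining types at most 4 per library.

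ECE1, which converts big endothelin to the active peptide, was the most widely spread member. In the injured libraries it was highest in oligodendrocytes, at 167, 159 and 197 CPM, and next in Endo, at 139, 123 and 174 CPM, and these ranges overlapped. Without cluster 19 Endo held 182, 143 and 207 CPM, above oligodendrocytes in replicates 1 and 3, so the order of these 2 types was not settled. Astrocytes followed at 84.6, 113 and 75.2 CPM, then ExN at 69.9 to 85.2 CPM and InN at 70.0 to 80.4 CPM. OPC and microglia lay below all of these, at 11.2 to 18.3 CPM and 13.1 to 15.8 CPM. The microglial level averaged unlike clusters, since cluster 16 held 75.2, 40.7 and 71.2 CPM and 241 of the 390 UMIs. Without it microglia held 4.87, 7.66 and 7.48 CPM.

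The cohorts differed in opposite directions in astrocytes and in Endo. Control astrocytes held 220 ECE1 UMIs, or 254 CPM, which is above all 3 injured animals. The fitted log2 fold change was -1.37 (SE 0.24), and its adjusted p of 0.0146 by edgeR missed the limit of 0.01 set for a call. Of 11 alternatives 6 called it, among them DESeq2 (adjusted p = 0.00294), a depth of 1000 UMIs per nucleus (adjusted p = 0.0057) and leaving out injured replicate 2, whose astrocytes had the highest injured level (adjusted p = 0.000196). The other 5 did not, with adjusted p-values of 0.0126 to 0.0403, the highest without injured replicate 1. The 6 include a looser limit on the adjusted p, which reuses the reported fit and was bound to call it, so that call adds no support. In Endo the order was turned, with control at 73.5 CPM (15 UMIs) below all 3 injured animals, a log2 fold change of 1.12 (SE 0.37) and an adjusted p of 0.0639. Without cluster 19 the injured animals averaged 177 ± 31.9 CPM (SD, n = 3) and the difference was 1.49 (SE 0.34, adjusted p = 0.0192 by edgeR), again not called.

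**Figure D2:**
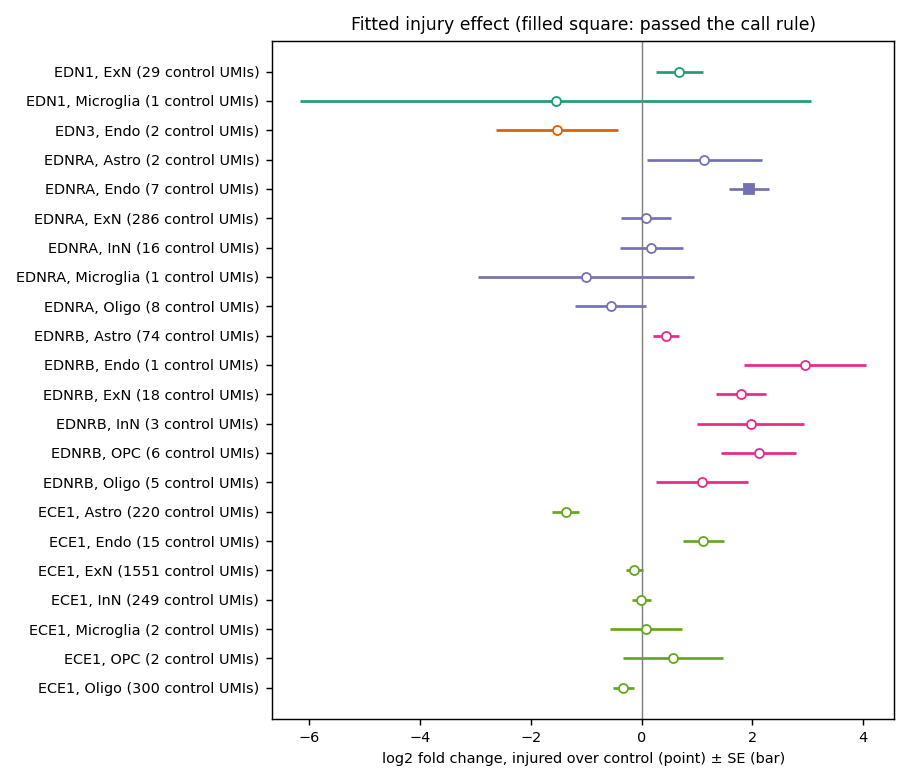
Fitted log2 fold change of injured over control (point) with its SE (bar) for the 22 of 24 tested pairs of gene and cell type that had UMIs in both cohorts. EDNRA in Endo (1.94) passed the call rule, and ECE1 in astrocytes (-1.37) and in Endo (1.12) lay on opposite sides of 0.

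The difference between these effects was tested as an interaction of cell type and cohort with library as a block. The ECE1 effect in Endo exceeded that in astrocytes by 2.52 on the log2 scale (SE 0.45, adjusted p = 0.00133 by edgeR), in a contrast where 3.28% of 14772 genes passed the same limit. Without injured replicate 1 it was 2.31 with an adjusted p of 0.0259. The Endo effect exceeded that in ExN by 1.27 (adjusted p = 0.0969) and that in oligodendrocytes by 1.46 (adjusted p = 0.0595), neither of which passed, in contrasts where 2.73% and 2.65% of genes did. Without cluster 19, a choice made after the data were seen, the Endo effect exceeded that in astrocytes by 2.92 (SE 0.44, adjusted p = 0.000526 by edgeR), with 1.89% of genes passing. It exceeded that in ExN by 1.67 (adjusted p = 0.0219) and that in oligodendrocytes by 1.86 (adjusted p = 0.0182), again without passing, where 3.33% and 1.72% of genes did.

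Astrocytic ECE1 was also compared between the main astrocyte clusters of the cohorts, where the difference did not pass the limit either. In them the injured libraries averaged 89.6 ± 19.7 CPM (SD, n = 3) and control held 303 CPM, a log2 fold change of -1.71 (SE 0.25, adjusted p = 0.0106 by edgeR, not called), and 0.558% of genes were called higher and 0.324% lower. The small clusters did not show that difference, since the 66 and 28 control nuclei outside the main cluster held 84.2 and 117 CPM (7 and 15 UMIs) and the 3 small injured clusters 117 to 119 CPM (15, 11 and 20 UMIs). Some of these clusters were mixed. Injured cluster 28 held 3047 CPM of oligodendrocyte markers, against 123 CPM in the main injured cluster. Neuron markers were 939 CPM in injured cluster 17 and 630 CPM in the 28 control nuclei, against 159 and 76.5 CPM in the main clusters. Oligodendrocyte markers, of a type rich in ECE1, summed to 167, 196 and 174 CPM in injured astrocytes and 206 CPM in control astrocytes. Astrocyte markers themselves were lower after injury, at 7619, 8651 and 9262 CPM against 14539 CPM. Their part in the result was not tested. A UMI of ECE1 was found in 32.3%, 26.6% and 28% of injured and 25.6% of control astrocytes, which goes against the order of the CPM, and injured nuclei were deeper. Thinned to 500 UMIs per nucleus, which left out none, the shares averaged 4.48% in the injured animals and were 11.1% in control. At 1000 UMIs they were 8.76% and 21.3%, with 36 of 2107 injured but 232 of 594 control astrocytes left out as too shallow.

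ECE1 in Endo differed between the marker classes in level. Mural-marked nuclei held 274, 244 and 317 CPM in the injured animals, endothelial-marked 190, 155 and 227 CPM and fibroblast-marked 103, 62.7 and 121 CPM. Control fibroblast-marked nuclei held 78.8 CPM (10 UMIs), within the injured range for that class. Between the clusters led by fibroblast markers in each cohort, the fitted difference was 0.62 (SE 0.51, adjusted p = 0.498 by edgeR). Between those led by endothelial markers it was 1.28 (SE 0.62, adjusted p = 0.43), with 209 ± 36.6 CPM (SD, n = 3) against 146 CPM from 3 control UMIs. The endothelial-led clusters differed in mural markers, at 1928 CPM in the main injured one (cluster 14) and 0 CPM in control. The Endo difference cannot be told apart from the difference in mixture. In neurons the cohorts lay close, with log2 fold changes of -0.13 (SE 0.15) in ExN and -0.01 (SE 0.17) in InN, and oligodendrocytes showed -0.33 (SE 0.19, adjusted p = 0.282), with control at 235 CPM.

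EDNRA, the receptor that constricts vessels, was the gene whose difference passed the call rule, namely an adjusted p below 0.01, a natural-log fold change beyond 0.25 and a UMI in at least 10% of nuclei of a cohort. Injured Endo held 120, 127 and 113 CPM (293, 532 and 505 UMIs), and control Endo 34.3 CPM from 7 UMIs, below all 3 animals. The log2 fold change was 1.94 (SE 0.36, adjusted p = 0.00814 by edgeR). It was the only one of 24 tested pairs of member and cell type to be called, against a background of 4.19% of 13205 genes called higher and 1.99% called lower in Endo. The remaining 11 of the 35 pairs had too few UMIs to test. Among the 24, the 10% limit was met only by EDNRA in Endo, EDNRB in astrocytes and OPC, and ECE1 outside OPC and microglia. The other tested pairs, such as EDN1 in Endo and EDNRB in Endo, microglia and ExN, could not be called at any adjusted p. The 11 alternatives include the looser limit of 0.05, which reuses the same fit and could not lose the EDNRA call. The call was lost in 5 of the 11. These were DESeq2 (adjusted p = 0.0193), library size alone (0.0128), 1000 UMIs per nucleus (0.0453), nuclei of at most 2500 genes (a difference of 1.41, adjusted p = 0.0419) and leaving out injured replicate 1 (1.95, adjusted p = 0.0177).

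For the other cell types the share of all genes called higher was 1.12% in astrocytes, 2.6% in ExN, 2.2% in InN, 0.619% in oligodendrocytes and 0.061% in OPC, and the share called lower 0.378%, 1.25%, 1.22%, 0.155% and 0.00871%. In microglia edgeR called 0 of 13470 genes, although 2857 had an unadjusted p below 0.05 and DESeq2 called 303. Scaling by library size alone in place of TMM shifted the median over all genes by -0.10 to -0.24 on the log2 scale and turned the called genes from 67.8% higher to 57.4% higher in Endo, from 74.9% to 57.7% in astrocytes, from 67.5% to 49.9% in ExN and from 64.3% to 47.6% in InN.

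The EDNRA difference in Endo cannot be told apart from the mixture of cells. Mural-marked nuclei, those with pericyte and smooth muscle markers, held by far the highest level, at 572, 513 and 513 CPM in 37, 77 and 71 injured nuclei. Endothelial-marked nuclei held 118, 158 and 122 CPM and fibroblast-marked nuclei 99.1, 57.0 and 112 CPM, both well under the mural level in each animal. The 6 mural-marked control nuclei held 3 of the 7 control UMIs, equal to 614 CPM with a 95% Poisson interval of 127 to 1795 CPM, which spans the injured mural levels. The injured mural level depended on the cut, at 310 CPM on average where 1 marker sufficed against 532 CPM with 2. Control fibroblast-marked nuclei held 2 UMIs (15.8 CPM) and the 25 endothelial-marked nuclei none.

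**Figure D3:**
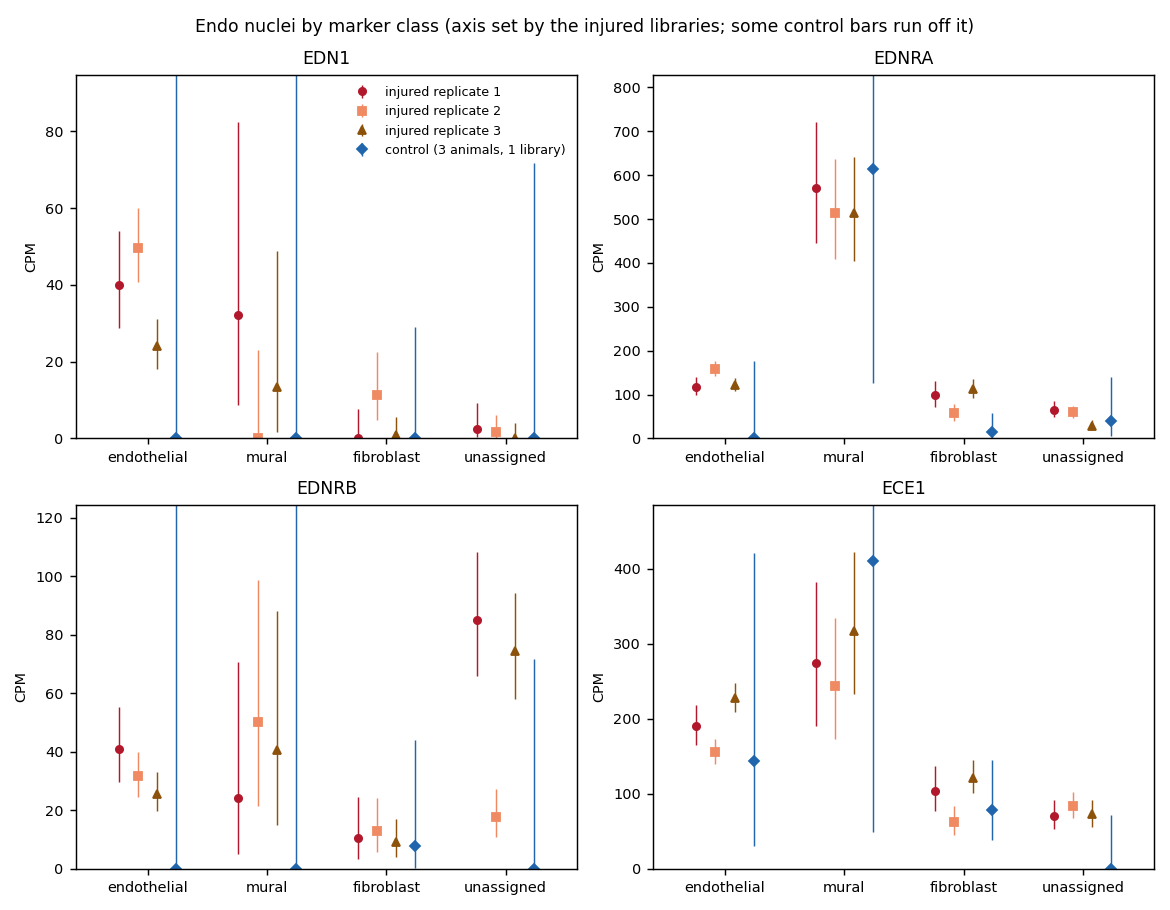
EDN1, EDNRA, EDNRB and ECE1 (CPM, linear axis from 0) in Endo nuclei classed by their vascular markers, with 1 point per library and exact 95% Poisson intervals, some of which run off the axis for control. EDNRA stood at 513 to 572 CPM in mural-marked nuclei of the injured animals and EDN1 at 24 to 49.7 CPM in endothelial-marked nuclei.

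Subsets of the Endo clusters were then compared, a choice made after the data were seen. Without cluster 19, EDNRA was 164 ± 18.5 CPM (SD, n = 3) in the injured animals and the log2 fold change was 2.48 (SE 0.39, adjusted p = 0.00408 by edgeR), with 4.56% of genes called higher and 1.65% lower. Between the clusters led by fibroblast markers, the injured animals averaged 99.5 ± 30.1 CPM and control 38.1 CPM (7 UMIs in 155 nuclei). That difference of 1.42 (SE 0.58) did not pass (adjusted p = 0.202). Between the clusters led by endothelial markers, injured nuclei held 185 CPM pooled and the 26 control nuclei 0 UMIs, which is at least 1.27-fold higher (adjusted p = 0.0983 by edgeR). These clusters were not alike in mural markers, which summed to 1928 CPM in the main injured cluster (cluster 14) and 0 CPM in control. The part of mural cells in that difference was not tested. Of all genes 0.101% were called higher and 0.0101% lower between the fibroblast-led clusters, and 0.0267% higher and 0% lower between the endothelial-led clusters.

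EDNRA was also a neuronal gene, in both cohorts. Excitatory neurons held 20.4, 20.0 and 8.62 CPM in the injured animals and 16.7 CPM in control, a log2 fold change of 0.08 (SE 0.45, adjusted p = 0.915 by edgeR). Of all EDNRA UMIs, 37.3% in the injured cohort and 89.1% in control came from excitatory neurons, which made up 24.8 to 36.4% of injured and 62.7% of control nuclei. Injured replicate 3 was the lowest and lay under control, so the cohorts overlapped.

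The neuronal signal was gathered in a few clusters. Excitatory clusters with KCNH8 or ADAMTS17 among their 10 leading genes (2 clusters in each cohort) held 54.0, 59.3 and 29 CPM in the injured animals, against 2.64, 4.58 and 2.29 CPM in the other excitatory clusters. In control the same rule gave 38.8 against 9.25 CPM. These clusters held 37.1%, 31.3% and 25.3% of injured excitatory nuclei but 91.5%, 83.5% and 79.8% of their EDNRA UMIs, and in control 27.5% of nuclei and 58.7% of UMIs. A further control cluster, led by GNG4 and CNTN5 and itself listing EDNRA among its leading genes, held the highest level, 110 CPM in 224 nuclei. RORB, a transcription factor typical of layer 4 neurons, reached 1512 and 1423 CPM in the injured clusters and 1838 CPM in that control cluster, while the largest remaining injured cluster held 632 CPM. RORB is not given here for the control clusters that the rule picked, so no layer is assigned to the group. The grouping was made after these values were seen and on genes of the same nuclei, so it is a description without a test.

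**Figure D4:**
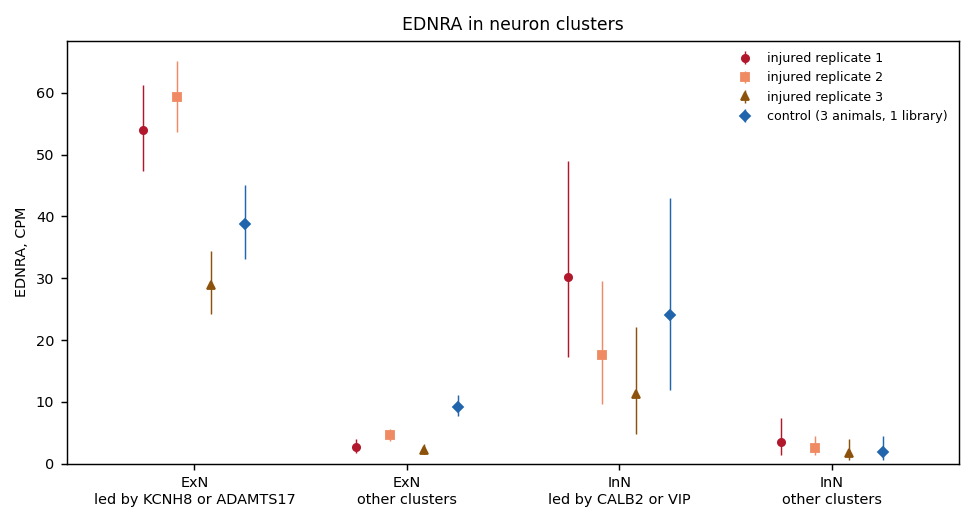
EDNRA (CPM, linear axis from 0) in excitatory clusters led by KCNH8 or ADAMTS17, in inhibitory clusters led by CALB2 or VIP, and in the other clusters of each type, with 1 point per library and exact 95% Poisson intervals. In every library the named clusters lay above the rest of their type.

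Inhibitory neurons repeated this on a smaller scale. The cluster with CALB2 or VIP among its leading genes, markers of interneurons that inhibit other interneurons, held 30.1, 17.6 and 11.2 CPM in the injured animals and 24 CPM in control. The other inhibitory clusters held 3.56, 2.57, 1.80 and 1.90 CPM in the same libraries. The CALB2 or VIP levels rest on 16, 14, 8 and 11 UMIs and the others on 7, 12, 6 and 5. ECE1 showed the reverse pattern, at 24.5, 44.0, 30.9 and 50.2 CPM in the CALB2 or VIP cluster against 81.5 to 86.6 CPM in the others pooled. Low ECE1 was not particular to that cluster. Injured inhibitory cluster 9 held 40.7, 46.9 and 56.7 CPM, and the larger cluster 5 held 86.3, 90.0 and 85.1 CPM. EDNRA in the remaining types was low, with at most 8.03 CPM in any library for astrocytes, microglia, oligodendrocytes and OPC.

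EDNRB, the receptor of endothelium and astroglia that also clears the peptide, was mainly glial. In the injured libraries OPC held 149, 77.0 and 155 CPM and astrocytes 125, 103 and 95.8 CPM, and these ranges overlapped. Endo followed at 48.5, 25.3 and 32.6 CPM and microglia at 27.7, 10.2 and 63.9 CPM. Oligodendrocytes, InN and ExN lay at 1.65 to 13.1 CPM. Injured replicate 2 had the lowest level of the 3 animals in OPC, Endo, microglia, InN and ExN but not in astrocytes or oligodendrocytes.

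In astrocytes the cohorts were near each other. Control astrocytes held 74 UMIs (85.5 CPM), just below the lowest injured animal, and the log2 fold change was 0.44 (SE 0.23, adjusted p = 0.242 by edgeR). A UMI was found in 42.3%, 23.7% and 30.3% of injured astrocytes and 11.3% of control astrocytes, whose median depths were 2903 to 5280 and 1183 UMIs. At 500 UMIs per nucleus, with none left out, the shares came to 5.88% on average and 4.71%, and at 1000 UMIs, without the shallower nuclei, to 11.3% and 7.73%. Excitatory neurons, deeper than astrocytes, showed a UMI in 1.27 to 2.52% of injured and 0.31% of control nuclei.

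Astrocytic EDNRB did not follow GFAP, the filament that reactive astrocytes raise. At 1000 UMIs per nucleus, nuclei with a GFAP UMI held 155, 123 and 103 CPM of EDNRB in the injured animals, and nuclei without one 152, 132 and 101 CPM. The order of these classes changed between animals. In control 34 nuclei with GFAP held 4 UMIs (118 CPM) and 328 without it 25 UMIs (76.2 CPM).

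OPC gave the largest difference in EDNRB among glia with UMIs in both cohorts. Control OPC held 6 UMIs (32.1 CPM) in 171 nuclei, below all 3 injured animals, and the ratio of pooled levels was 4.05 (95% interval 1.85 to 11.1). At 500 UMIs per nucleus, with none left out, control held 70.2 CPM and the injured animals 79.8 to 175 CPM. That is a ratio of 1.86 (0.81 to 5.22), which was not resolved. At 1000 UMIs, with 91 of 171 control nuclei left out, control held 1 UMI (12.5 CPM) and the injured animals 87.8 to 133 CPM. The ratio there was 8.86 (1.56 to 353), so thinning to equal depth did not settle the difference. The log2 fold change was 2.12 (SE 0.68), with an adjusted p of 0.154 by edgeR. Without injured replicate 2, the lowest injured library, it was 2.35 with an adjusted p of 1.03e-05, in a fit that called 820 of 11306 OPC genes where the fit with all libraries called 8 of 11476. No other alternative called it (adjusted p = 0.0422 to 0.239 by edgeR, and none given by DESeq2). Astrocyte markers were higher in EDNRB-positive than EDNRB-negative OPC of each injured animal, at 1388 against 1015, 896 against 757 and 1377 against 1162 CPM. OPC markers were lower in the positive nuclei, at 1625 against 2345, 1436 against 2224 and 1319 against 1782 CPM. The positive nuclei were deeper, at medians of 6608.5 against 5052.5, 3807 against 2768 and 6434 against 4082 UMIs. The part of these differences in the result was not tested.

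Microglial EDNRB was detected in the injured libraries, and control microglia were few. The 129 control nuclei held 0 UMIs where 3 would have been 24.1 CPM, which the pooled injured level exceeded 1.40-fold. This rested on injured replicate 3, since the other animals pooled to 21.2 CPM, below the limit, as was replicate 2 alone, so a difference was not detectable at this depth. The test gave an adjusted p of 0.599. Within the injured microglia the level was highest in cluster 6, at 39.4, 14.6 and 99.7 CPM, whose leading genes included the phagocyte receptors MRC1, CD163, CD36 and MSR1. Clusters 21 and 16, the latter led by lymphocyte genes, held 12.6, 3.90 and 24.8 CPM and 12, 4.24 and 19.2 CPM, lower in each animal. Without cluster 16 the microglial level was 30.1, 11.3 and 70.6 CPM. The clusters were made from these nuclei, so this is a description.

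Signal from other glia was examined beside this result. EDNRB-positive microglia held 160, 194 and 188 CPM of astrocyte markers and EDNRB-negative microglia 189, 140 and 276 CPM, so the positive nuclei were richer in replicate 2 only. OPC markers were 462, 128 and 519 CPM in positive against 243, 126 and 258 CPM in negative nuclei, higher in replicates 1 and 3 and nearly equal in replicate 2. Positive nuclei were deeper, at medians of 3780 to 6068 against 2410 to 3793 UMIs. Their part in the result was not tested.

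**Figure D5:**
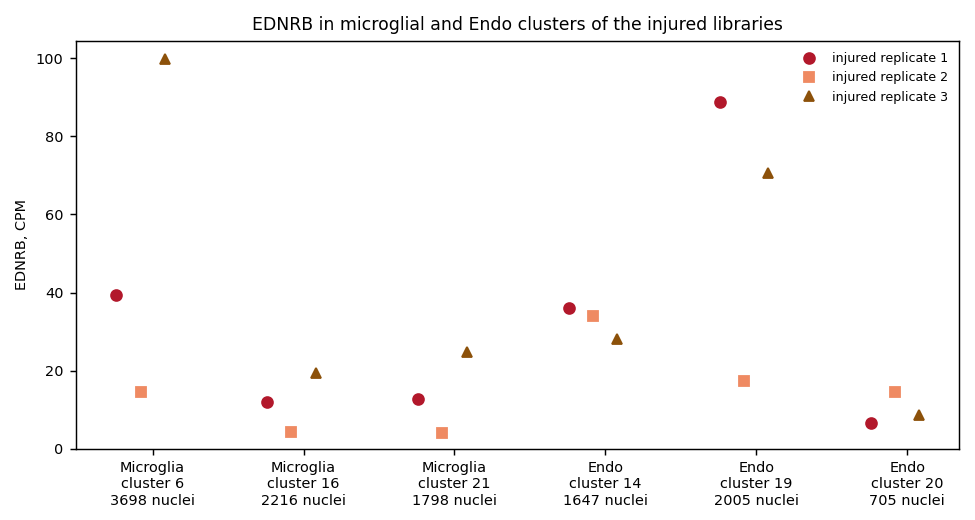
EDNRB (CPM, linear axis from 0) in the microglial and Endo clusters of the injured cohort with at least 200 nuclei, with 1 point per animal and no error bar. Microglial cluster 6 held 14.6 to 99.7 CPM and Endo cluster 19 17.2 to 88.8 CPM, while fibroblast-led Endo cluster 20 held 6.47 to 14.5 CPM.

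Endo EDNRB was partly a signal of cluster 19. That cluster held 88.8, 17.2 and 70.6 CPM, against 35.9, 34.0 and 28.2 CPM in the main endothelial cluster and 6.47, 14.5 and 8.69 CPM in the fibroblast-led cluster. Without it the injured Endo level was 25.8 ± 3.32 CPM (SD, n = 3), against 35.5 ± 11.9 CPM with it. The control library held 1 UMI in Endo (4.90 CPM). The ratio of the pooled levels was 6.80 with a counting interval of 1.21 to 269, and the adjusted p was 0.0963 by edgeR. Without cluster 19 the ratio was 5.19 (0.92 to 206) and the adjusted p 0.0788 by edgeR. The control nucleus with that UMI held 16474 CPM of astrocyte and 275 CPM of endothelial markers. The other control Endo nuclei held 933 and 1122 CPM. In the injured animals astrocyte markers were 690, 348 and 904 CPM in EDNRB-positive and 634, 470 and 648 CPM in EDNRB-negative Endo nuclei. The part of astrocyte signal was not tested. In ExN the log2 fold change was 1.79 (SE 0.45, adjusted p = 0.0326), at 2.42 to 4.18 CPM against 1.05 CPM from 18 UMIs. At 1000 UMIs per nucleus it was 0.85 (adjusted p = 0.395 by edgeR), and the ratio of pooled levels was 1.65 (95% interval 0.75 to 3.98) in place of 3.11. Astrocyte markers were 1133 CPM in the 17 EDNRB-positive and 242 CPM in the EDNRB-negative control ExN. In injured ExN they were 166, 268 and 351 against 203, 266 and 266 CPM. Their part was not tested. The EDNRB effect in astrocytes was tested against that in each other type and none of these differences passed, the smallest adjusted p being 0.501, against ExN, where 0.663% of genes passed.

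Genes whose level ran most closely with each member across the 28 sums of library and cell type were named by Pearson correlation of log2(CPM + 1), among 14659 genes. The sums share libraries and depth, and these values carry no test. EDN3 ran with SLC22A2 (0.98), OSR1 (0.97) and NOV (0.96). EDNRA ran with an unnamed gene (0.93), ABCB1 (0.92), the efflux pump of the blood-brain barrier, and SLC39A10 (0.91). EDNRB ran with SCARA3 (0.94), ACADVL (0.93) and FABP7 (0.92), the fatty acid binding protein of radial glia and astrocytes. ECE1 ran with EVA1C (0.89), TSPAN5 (0.87) and CORO2B (0.87), and EDN1 with an unnamed gene (0.84), ZMAT2 (0.83) and TRAPPC5 (0.83).

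The genes around these members were taken as 5 lists, of which 72 genes were tested in Endo, where 4.19% of all genes were called higher and 1.99% lower. With cluster 19 left out, 14 of 70 tested list genes were called (13 higher, 1 lower), in a fit where 4.56% of all genes were called higher and 1.65% lower, against 10 of 72 with it, and 9 were called in both. Among other vasoactive systems 4 of 15 tested genes rose in Endo and none fell, with a median log2 fold change of 2.48 against 0.26 for all genes. GUCY1A1 (listed as GUCY1A3) and GUCY1B1, subunits of the nitric oxide receptor guanylate cyclase, reached 151 to 169 and 142 to 157 CPM in the injured animals, against 34.3 and 29.4 CPM in control. NPR1, a natriuretic peptide receptor, held 56.7 to 61.8 CPM against 4.90 CPM (1 UMI), and RAMP2, which partners the adrenomedullin receptor, 150 to 198 CPM against 19.6 CPM (4 UMIs). The receptor CALCRL itself lay at 196 to 250 against 98.0 CPM (1.32, adjusted p = 0.0176), and GUCY1A2 at 132 to 154 against 68.6 CPM (1.20, adjusted p = 0.0272), neither called. Without cluster 19 CALCRL was called (1.84, SE 0.28, adjusted p = 0.00377 by edgeR), as were NOS3 (3.57, adjusted p = 0.00667), the endothelial nitric oxide synthase with 2 control UMIs, and ADM (adjusted p = 0.00836), which encodes adrenomedullin and had 0 control UMIs. In the same Endo sums endothelial and mural markers were higher and fibroblast markers lower than in control, as given above, and their part was not tested.

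Among regulators of EDN1 transcription 2 of 9 tested genes rose in Endo and none fell, where 4.19% of all genes were called higher and 1.99% lower. EPAS1, a hypoxia-responsive factor abundant in endothelium, reached 802, 836 and 898 CPM against 216 CPM (2.10, SE 0.27, adjusted p = 0.00181 by edgeR). KLF2, a flow-responsive factor known to repress EDN1, reached 243, 298 and 246 CPM against 34.3 CPM from 7 UMIs (3.07, SE 0.39, adjusted p = 0.00176). NFKB1 lay at 168 to 185 against 98.0 CPM without a call (0.98, adjusted p = 0.04). The list's median of 0.98 stood beside 0.26 for all genes. The vascular markers of the same sums differed as for the vasoactive list, and their part was not tested.

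In Endo 4.19% of all genes were called higher and 1.99% lower. Of G proteins and receptor regulators 3 of 15 rose in Endo, namely GNAI1, GNAI3 and RGS3, and none fell, with a median log2 fold change of 1.10. DESeq2 called 0 genes of this list, and without cluster 19 GNAI1 was not called (adjusted p = 0.0181 by edgeR) while GNAI2 was (1.42, adjusted p = 0.00593). The same difference in vascular markers stood beside this list and the next, and its part was not tested. GNAI3 was at 143, 167 and 145 CPM against 49.0 CPM (1.76, SE 0.35, adjusted p = 0.00975 by edgeR). GNAI1 and RGS3 had 1 control UMI each, beside 52.8 to 60.8 and 67.8 to 93.7 CPM in the injured animals. GNA12, at 58.4 to 76.4 against 176 CPM, was not called (-1.20, adjusted p = 0.022). Of the 26 receptor effectors tested 1 fell, PRKCA, a protein kinase C isoform downstream of the A receptor, at 471, 526 and 519 against 1343 CPM (-1.28, SE 0.21, adjusted p = 0.00451), and none rose (list median 0.35). Without cluster 19 PLCB4, a phospholipase C, was called higher (1.18, SE 0.23, adjusted p = 0.00926 by edgeR). EGFR was at 130 to 159 against 328 CPM (-1.02, adjusted p = 0.0171).

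Of 7 tested genes for endothelin processing and clearance edgeR and DESeq2 each called 0 in Endo, and 2 had an unadjusted p below 0.05 by edgeR (median log2 fold change -0.16). ECE2, a second converting enzyme, was at 24.8 to 35.8 against 73.5 CPM (-1.15, adjusted p = 0.0798 by edgeR) and PCSK6, a proprotein convertase, at 21.0 to 27.5 against 73.5 CPM (-1.52, adjusted p = 0.0295). Uncalled genes were named only with at least 10 control UMIs, which in Endo equal 49.0 CPM. At these injured levels a gene could thus be named only if it was lower, so the sign carries no information.

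In astrocytes edgeR called 0 of the 64 tested genes of these lists, and DESeq2 called 1. An unadjusted p below 0.05 was found for 22 of them (34.4%), near the 30.01% of all genes tested. The medians of the 5 lists ran from 0.18 to 0.70, beside 0.05 for all genes. GRK3 and ARRB1, which silence active receptors, came nearest, at 108 to 161 against 392 CPM (-1.37, SE 0.23, adjusted p = 0.0118) and 214 to 242 against 485 CPM (-0.96, SE 0.17, adjusted p = 0.0149). PRKCB was at 118 to 128 against 261 CPM (-0.96, adjusted p = 0.0154), PLCB3 at 16.7 to 29.7 against 50.9 CPM (-1.09, adjusted p = 0.096). PCSK6 was at 15.1 to 16.8 against 41.6 CPM (-1.29, adjusted p = 0.0321) and CTSA at 2.73 to 5.61 against 15 CPM (-1.62, adjusted p = 0.11). HIF1A (133 to 184 against 279 CPM) and SMAD3 (165 to 262 against 114 CPM) gave -0.73 and 1.01, with adjusted p-values of 0.0748 and 0.0654. GUCY1A2 and GUCY1B1 stayed near control, at -0.20 and -0.08.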

How the data were processed

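Nuclei of marmoset V1 from 3 injured animals (1 library each) and 3 control animals (1 pooled library) were profiled by droplet single-nuclei RNA sequencing. The authors aligned reads to calJac3 with cellranger (Cell Ranger 3.1.0 per the labels), used an Ensembl annotation processed for nuclei, and deposited raw UMI counts per gene and nucleus, without normalization, beside tables with each nucleus's library, cluster and cell type. Scrublet removed doublets from the injured cohort, and a filter on genes per nucleus in Seurat served for control. Injured nuclei were purified by ultracentrifugation and control nuclei by sorting.

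UMIs of all nuclei that a library held of a cell type were added up, with no nucleus removed. CPM are UMIs per 1000000 UMIs of the sum. Genes listed in both tables were tested by the quasi-likelihood test of edgeR 4.0.16 (R 4.3.3) after its TMM scaling and default low-count filter (3 injured against 1 control library, Benjamini-Hochberg adjustment over all genes tested). The spread came from the injured libraries and was assumed for the control library. Each injured library was 1 animal, and the pooled control library gives no spread between animals. A call followed the authors' rule, which asks for adjusted p under 0.01, a fold change beyond 0.25 on the natural-log scale in either direction, and detection in no fewer than 10% of nuclei in one cohort or the other. The step was tested on simulated counts at a dispersion of 0.05, where 27% of genes changed 4-fold were called in astrocytes (12445 genes) and 9% in Endo (13205 genes), 0% of those changed 2-fold and 0 unchanged genes. That dispersion was set and not estimated from these data. Changed genes could be of low count, and the 10% detection rule was left out. These shares are therefore not the power of the real fits. Levels carry exact Poisson intervals and shares exact Clopper-Pearson intervals at 95%. To compare shares at equal depth, each nucleus was cut by random draws to 1000 or 500 UMIs, and nuclei below 1000 were left out of the first (232 of 594 control and 36 of 2107 injured astrocytes, 96 of 181 and 1235 of 4444 Endo nuclei) and none out of the second. DESeq2 1.42.0, other scalings, no low-count filter and leaving out each injured library were alternatives.

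Every member was named in every cell type. From each list around them every gene called in Endo or astrocytes was named, with the 2 largest differences that had at least 10 UMIs in each cohort, and for each member the 3 genes most like it that had at least 100 UMIs. The members and lists were chosen with earlier results of these data known. Replicate numbers of the injured animals only name them.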

Additional observations from a re-analysis of the deposited data

Results flagged for a closer look

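The difference between the cohorts in ECE1 differed between cell types. In Endo minus in astrocytes the difference was 2.52 on the log2 scale (SE 0.45, adjusted p = 0.00133 by edgeR), with all 3 injured animals above control in Endo and all 3 below it in astrocytes. Without injured replicate 1 it was 2.31 (adjusted p = 0.0259), and without Endo cluster 19 2.92 (adjusted p = 0.000526). Injury, the protocols of the cohorts and the mixture of Endo nuclei cannot be told apart in it. Groups of 3 libraries were too small for a search for single libraries that stand apart.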

How the results depend on the processing

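The count of called genes over all cell types was 2126 and became 3363 with DESeq2, 718 at 1000 UMIs per nucleus and 6945 at an adjusted p limit of 0.05, and 971 to 6203 when 1 injured library was left out (971 without replicate 1, 6203 without replicate 2, 3423 without replicate 3). In Endo it was 816, became 349 at 1000 UMIs and 1802 at the limit of 0.05, and 513 to 1617 without 1 library. In astrocytes it was 187, became 340 with DESeq2, 338 with no filter, 118 at 1000 UMIs, 82 with nuclei of at most 2500 genes and 891 at the limit of 0.05, and 82 to 716 without 1 library. Called pairs of member and cell type numbered 1, and 2 with no filter, 0 with nuclei of at most 2500 genes, 2 at the limit of 0.05 and 0 to 3 without 1 library (0 without replicate 1, 3 without replicate 2). Pairs with a UMI in fewer than 10% of nuclei of both cohorts could not enter these counts at any adjusted p.

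The EDNRA difference in Endo kept its direction throughout but was no longer called with DESeq2 (1.906), library size alone (1.83), 1000 UMIs per nucleus (2.25) and nuclei of at most 2500 genes (1.41), and it ranged from 1.85 to 1.97 without 1 injured library, lost without replicate 1. Among comparisons added after the data were seen it was not called in fibroblast-led (1.42) or endothelial-led clusters (adjusted p = 0.0983). The ECE1 interaction was 2.31 without replicate 1 (2.31 to 2.94 over the 3 such fits). ECE1 in astrocytes, not called in the reported fit, was called in 6 alternatives. These include the looser limit on the adjusted p, which reuses that fit and was bound to call it. The cause of these changes was not tested.

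Signs turned only where a difference lay near 0 or was not resolved. ECE1 was 0.055 in ExN at 1000 UMIs, -0.084 to 0.047 in InN without 1 library (above 0 without replicates 1 and 3), and -0.16 and -0.026 in microglia with library size alone and at 1000 UMIs. EDNRA in ExN was -0.036 with library size alone and -0.13 to 0.38 without 1 library (below 0 without replicates 1 and 2), and in InN -0.19 to 0.43 (below 0 without replicate 1). At 1000 UMIs the astrocyte minus oligodendrocyte difference of EDNRB was 0.31, and the Endo minus microglia difference of EDNRA -2.39. Of 251 recomputed member differences, 230 kept direction and call, but those of pairs below the 10% detection limit had no call to gain.

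Shares of nuclei with a UMI fell with thinning. EDNRA in injured Endo, cluster 19 included, went from 12.5% to 7.13% at 1000 and 3.92% at 500 UMIs, and in control from 3.31% to 1.10% at 500 UMIs. EDNRB in astrocytes went from 32.1% to 11.3% and 5.88% in injured and from 11.3% to 7.73% and 4.71% in control. ECE1 in astrocytes went from 29% to 8.76% and 4.48% and from 25.6% to 21.3% and 11.1%. Mural-marked EDNRA was 310 CPM, not 532 CPM, when 1 marker sufficed.

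No paired analysis was possible because control is 1 library. The depth of control Endo (181 nuclei), microglia (129) and OPC (171) limits every comparison there, since 3 UMIs equal 14.7 to 24.1 CPM.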

Other observations

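Outside astrocytes and Endo, 3 differences among the genes around the endothelin members passed the call rule, and these were named after their values were seen. GRK2, a kinase that desensitizes receptors such as EDNRA and EDNRB, was higher in excitatory neurons of the injured animals, at 33.9, 28.8 and 34.1 CPM against 10.6 CPM in control (log2 fold change 1.72, SE 0.18, adjusted p = 0.00226 by edgeR). In inhibitory neurons it held 24.8, 27.1 and 26.7 CPM against 6.81 CPM (2.05, SE 0.30, adjusted p = 0.00262). GUCY1A1, listed as GUCY1A3, held 36.0, 26.6 and 35.2 CPM against 12 CPM in inhibitory neurons (1.53, SE 0.29, adjusted p = 0.00803). The injured animals did not overlap control in any of the 3, but the genes were picked by their calls, so this adds no support. At 1000 UMIs per nucleus the genes called fell from 582 to 82 in excitatory and from 443 to 89 in inhibitory neurons. Of the lists 1 of 74 tested genes rose in excitatory and 2 of 65 in inhibitory neurons, where 2.6% and 2.2% of all genes were called higher.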
